A study of Mus musculus with 16 samples.

Results

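The 10 genes described here are 3 receptors of the EGFR (ERBB) family (Egfr, Erbb2 and Erbb3), 6 of its ligands (Areg, Ereg, Hbegf, Tgfa, Btc and Epgn) and the feedback inhibitor Errfi1. They were chosen as a list of symbols, matched through their Entrez identifiers without use of their values, and are 10 of the 24467 genes in each count file. All 10 were found, and 9 passed the expression filter of the test, the exception being Epgn. RNA was sequenced in bulk from cancer cells sorted out of orthotopic pancreatic tumours, that is, tumours grown in the pancreas of host mice from the line KPC 7TCF-eGFP/Porcn-DMA. KPC is a mouse model of pancreatic ductal adenocarcinoma (PDAC). All 16 libraries came from this 1 line, so every group carried the 7TCF-eGFP reporter, in which TCF sites drive green fluorescent protein, and Porcn-DMA, a construct that the sources used here do not describe. The 4 sorted groups compared had 4 libraries each, from 4 mice per group, made by a low-input protocol that amplifies full-length cDNA by PCR. The labels number the libraries of each group 1 to 4, but the sources used here do not state what a number stands for, nor whether the same mice gave all 4 groups. DN was negative for both fluorescent proteins, GFP was positive for the WNT reporter alone, mScarlet was positive for mScarlet alone, and DP was positive for both. The design also names a WNT-secreting population, for which mScarlet is the gate left, though no label says so in words. The sources used here do not state the strain, age or sex of the hosts.

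The genes lie at the following places in GRCm38. Egfr (Entrez 13649) is on the forward strand of chromosome 11 from 16752203 to 16913907, and Erbb2 (Entrez 13866) is on the same strand of chromosome 11 from 98412484 to 98437716. Erbb3 (Entrez 13867) is on the reverse strand of chromosome 10 from 128567523 to 128589635. Of the ligands, 4 lie together on chromosome 5. Epgn (Entrez 71920) starts at 91027517 and ends at 91035212, Ereg (Entrez 13874) runs from 91074617 to 91093649 and Areg (Entrez 11839) from 91139599 to 91148432, all on the forward strand. Btc (Entrez 12223) is on the reverse strand from 91357261 to 91402994, so that the 4 genes span 375478 bases. Tgfa (Entrez 21802) is on the forward strand of chromosome 6 from 86195038 to 86275744. Hbegf (Entrez 15200) is on the reverse strand of chromosome 18 from 36504927 to 36515805. Errfi1 (Entrez 74155) is on the forward strand of chromosome 4 from 150853796 to 150868889. Egfr, Ereg, Tgfa and Errfi1 each overlap an antisense or opposite-strand transcript model (Egfros, Gm19610, Gm43917 and 1700045H11Rik), and Erbb2 overlaps Mien1 and Gm25048. The sources used here do not say whether counting used strand, so reads of these pairs cannot be told apart.

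ERBB receptors are membrane tyrosine kinases that signal as pairs. EGFR binds amphiregulin (Areg), epiregulin (Ereg), heparin-binding EGF (Hbegf), transforming growth factor alpha (Tgfa), betacellulin (Btc) and epigen (Epgn), which are made as membrane precursors and released by shedding proteases. ERBB2 has no known ligand and serves as the preferred partner, while ERBB3 binds neuregulins, has a weak kinase and couples strongly to PI3 kinase. ERRFI1 (also called MIG6) is induced by growth factor signalling and binds and inhibits the EGFR kinase. In the pancreas, EGFR signalling is known to take part in the early steps from acinar cells to ductal lesions.

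The 250 bases upstream of the start site are shown for the receptors Egfr and Erbb2, which had higher means in the mScarlet-positive groups, and for the ligand Areg, whose window held matches to 3 of the 6 motifs searched. The windows are from RefSeq (GRCm38.p6), forward strand, at chr11:16751953-16752202, chr11:98412234-98412483 and chr5:91139349-91139598, written 5′ to 3′ with motif matches in capitals.
Egfr: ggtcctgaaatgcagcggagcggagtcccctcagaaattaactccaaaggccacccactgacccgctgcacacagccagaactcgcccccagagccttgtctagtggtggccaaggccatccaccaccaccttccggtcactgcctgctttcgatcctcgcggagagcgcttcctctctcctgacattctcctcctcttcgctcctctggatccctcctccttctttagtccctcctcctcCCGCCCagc
Erbb2: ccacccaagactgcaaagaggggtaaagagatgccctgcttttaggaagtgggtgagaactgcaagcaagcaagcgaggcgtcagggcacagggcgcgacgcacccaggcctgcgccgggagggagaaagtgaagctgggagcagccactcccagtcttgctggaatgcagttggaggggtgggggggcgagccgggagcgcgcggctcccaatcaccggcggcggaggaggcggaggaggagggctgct
Areg: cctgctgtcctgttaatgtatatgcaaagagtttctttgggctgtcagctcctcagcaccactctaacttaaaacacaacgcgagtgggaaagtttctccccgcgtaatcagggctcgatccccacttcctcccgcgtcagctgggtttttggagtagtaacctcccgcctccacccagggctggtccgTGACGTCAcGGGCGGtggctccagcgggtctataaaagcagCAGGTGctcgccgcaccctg
The motifs, searched on both strands, were CTTTGAA and CTTTGAT (forms of the TCF/LEF site), TGANTCA (AP-1), TGACGTCA (the cAMP response element), GGGCGG (GC box) and CACCTG (an E-box). Windows of 7 of the 10 genes were searched, and none of their 8 windows held either TCF/LEF form or the AP-1 motif. Erbb3, Ereg and Hbegf were not searched. Of all 32851 windows, 4.46% held CTTTGAA, 3.21% held the other TCF/LEF form and 6.75% held the AP-1 motif. A missing match says only that these letters are not in the window. Areg held TGACGTCA from position -61 (bases before the start site), GGGCGG from -52 and CACCTG, which 17.2% of all windows hold, from -20 on the reverse strand. One of the Errfi1 windows also held TGACGTCA, from -51, a motif found in 1.55% of all windows. In the Egfr window the only match was GGGCGG, read on the reverse strand as CCGCCC from -9, a motif found in 32.7% of all windows. No match was found in the Erbb2 window. GC content was 60.8% for Egfr, 66% for Erbb2 and 57.2% for Areg, beside a median of 52.4% over all windows.

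Total counts ran from 80647185 to 104273669 per library, so that 3 counts, the floor for a gene at 0, were worth 0.0288 to 0.0372 CPM (counts scaled to library depth in the usual way, with TMM factors). The label of cancer epithelium was checked against its markers. Krt19 (keratin 19) had group means of 8319 (DN) to 12519 CPM (mScarlet) and Cdh1 (E-cadherin) of 686 (GFP) to 1203 CPM (mScarlet). Krt7, Krt8, Krt18, Sox9 and Muc1 had group means of 220 CPM (Sox9, GFP) or more. Epcam, which usually defines epithelium, was nearly absent, at 0 to 0.474 CPM in 15 libraries and at 29 CPM in GFP library 4. Cldn4 and Cldn7 were low as well. Cldn4 had means of 1.37 (DN), 2.18 (mScarlet) and 1.35 CPM (DP), and Cldn7 of 0.699, 0.178 and 0.0375 CPM. In GFP they reached 37 and 44.5 CPM in the highest library, with medians of 1.34 and 0.312. Of 15 macrophage, 14 fibroblast and 14 acinar markers, the summed level was highest in GFP library 1 (37604 CPM), GFP library 4 (10362 CPM) and GFP library 4 (28838 CPM). Along the mScarlet gate, results of the receptors and of genes around them called with the group alone are therefore also given without GFP libraries 1 and 4. For genes around the receptors called only with the block, no fit without these libraries is given.

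Per kilobase of exon, the scale on which levels of different genes were compared, Hbegf was the most abundant member. Over the 16 libraries its level was 114 ± 35 CPM per kb (SD), followed by Erbb2 with 79.6 ± 24 and Errfi1 with 69.7 ± 18.5, and these 3 neighbours overlapped within their spread. Areg at 19.4 ± 5.28 CPM per kb and Erbb3 at 18.8 ± 9.85 came next and overlapped with each other. Btc at 5.63 ± 2.12, Tgfa at 5.55 ± 1.04 and Egfr at 3.5 ± 1.59 CPM per kb formed a lower tier, again overlapping. Ereg was far lower, at 0.212 ± 0.175 CPM per kb, and Epgn had 34 counts in GFP library 1, 18 in DP library 1 and 0 in the other 14 libraries. Exon length was the union over all annotated transcripts, which is long for Egfr (11326 bases) and lowers its level on this scale.

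**Figure D1:**
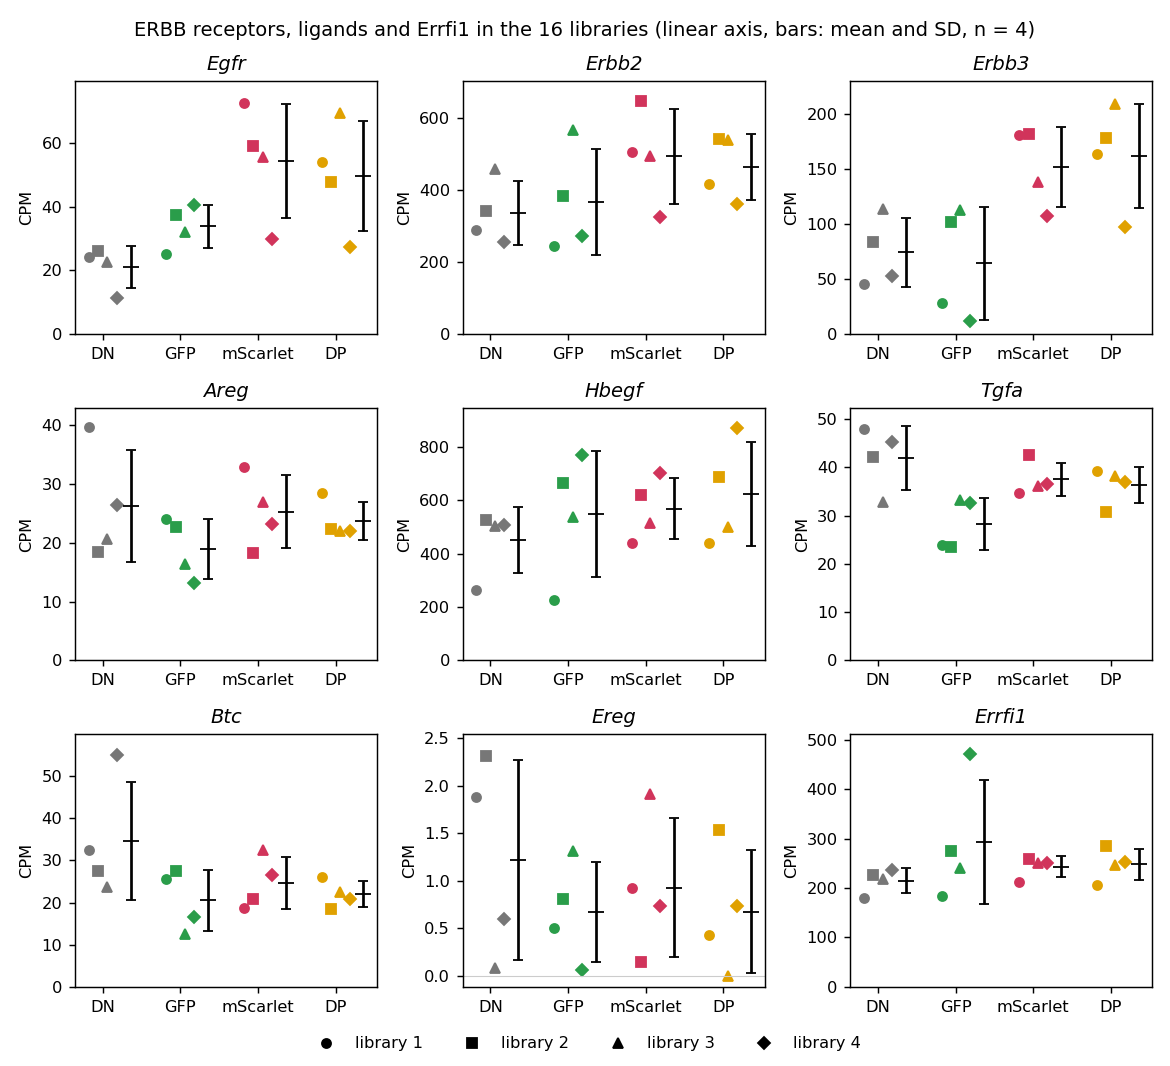
CPM of the 9 tested members in each of the 16 libraries by sorted group (linear axes from 0; marker shape: library number; bars: mean and SD, n = 4). Egfr lay at 29.9 to 72.6 in mScarlet and at 11.4 to 26.2 in DN without overlap, while Areg, Hbegf and Errfi1 overlapped in all groups.

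Among the receptors, Egfr was higher in the mScarlet-positive groups. Its level was 24.2, 26.2, 22.7 and 11.4 CPM in DN libraries 1 to 4, and 25.2, 37.3, 32 and 40.6 CPM in GFP. It was 72.6, 59, 55.7 and 29.9 CPM in mScarlet, and 53.9, 47.8, 69.3 and 27.4 CPM in DP. All 4 mScarlet libraries and all 4 DP libraries lay above all 4 DN libraries, while library 4 of both groups lay below GFP libraries 2, 3 and 4. Library 4 was the lowest of its group in DN, mScarlet and DP. In bulk samples, fewer expressing cells and less RNA per cell cannot be told apart, here or below.

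The mScarlet gate is read below as mScarlet and DP (mScarlet-positive) against DN and GFP (mScarlet-negative). With the group alone in the model, Egfr was the member called along this gate (51.9 ± 16.5 against 27.4 ± 9.18 CPM, SD, n = 8), with a log2 fold change of 0.96 (SE 0.22, fold 1.94, edgeR adjusted p = 0.015). That was 1 of 9 tested members, beside 8.73% of all 15963 genes called in either direction and 3.52% called higher. Egfr was also called in mScarlet vs DN, at a log2 fold change of 1.36 (SE 0.32, fold 2.57, edgeR adjusted p = 0.0487), where 1.18% of all genes were called. DP vs DN gave Egfr a log2 fold change of 1.23 (SE 0.32, edgeR adjusted p = 0.0538), which missed the threshold, with 2.32% of all genes and 0 of 9 members called by edgeR. In that comparison Egfr and Btc, 2 of the 9, had an unadjusted p under 0.05, beside 15.8% of all genes, and DESeq2 called 1, Egfr, and 1146 of all genes. mScarlet vs DN and DP vs DN share the DN libraries. The groups of 4 did not overlap for Egfr in either of them, as was so for 11.1% and 13% of all genes.

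The mScarlet vs DN call of Egfr was narrow. It was kept without GFP library 1 (edgeR adjusted p = 0.0367), GFP library 4 (0.0441), mScarlet library 4 (0.0165) or DP library 4 (0.0346), and missed without any 1 of the other 12 libraries (0.0585 to 0.171). edgeR's default dispersion gave an adjusted p of 0.0555. The call of Egfr along the mScarlet gate held without any single library (edgeR adjusted p = 0.00674 to 0.0397) and stood at 0.051 without GFP libraries 1 and 4 together, with a log2 fold change of 0.93.

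Libraries with the same number deviated together, less clearly in mScarlet vs DN, DP vs GFP and GFP vs mScarlet. What the number stands for is not stated. The number was also fitted as a block. Egfr then had a log2 fold change of 0.90 along the mScarlet gate (SE 0.19, edgeR adjusted p = 0.00719) and was also called in DP vs DN (edgeR adjusted p = 0.0188, log2 fold change 1.23, SE 0.27). In mScarlet vs DN and DP vs DN it was the 1 member called with the block, beside 5.42% and 6.37% of all genes. The blocked call in mScarlet vs DN ended without DN library 1 (0.0507), mScarlet library 1 (0.0659) or mScarlet library 2 (0.0508). That in DP vs DN ended without DN library 1 (0.0642), 3 (0.055) or 4 (0.0641), or DP library 1 (0.0726) or 3 (0.0724). Within a number, the mScarlet library exceeded the DN library by 1.55, 1.14, 1.26 and 1.32 in log2(CPM + 1) of Egfr, for numbers 1 to 4. DP exceeded GFP by 1.07, 0.35 and 1.09 for numbers 1 to 3, and lay below it for number 4, at -0.55, where the GFP library held the highest fibroblast and acinar marker sums. The part of those markers in the Egfr result was not tested. With the block and without GFP libraries 1 and 4, Egfr had an edgeR adjusted p of 0.000191 along the mScarlet gate (log2 fold change 1.03).

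Erbb3, the neuregulin receptor, had the largest fold change of the receptors along the mScarlet gate over all libraries and the largest standard error. Without GFP libraries 1 and 4 its fold change was below that of Egfr, at 0.80 against 0.93 on the log2 scale, and with the block at 0.96 against 1.03. Its level was 45.5, 83.7, 114 and 53.1 CPM in DN, and 28.4, 102, 113 and 12.1 CPM in GFP. It was 181, 182, 138 and 107 CPM in mScarlet, and 164, 178, 209 and 96.8 CPM in DP. GFP libraries 1 and 4 were the lowest of all 16, and the lowest mScarlet-positive libraries, mScarlet 4 and DP 4, fell inside the range of DN and GFP. The means were 157 ± 39.3 CPM in mScarlet-positive and 69.1 ± 39.8 in mScarlet-negative libraries (SD, n = 8).

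With the group alone, the difference in Erbb3 missed the threshold (edgeR adjusted p = 0.0698, log2 fold change 1.19, SE 0.38). With the number as a block it was called (edgeR adjusted p = 0.00754, log2 fold change 1.38, SE 0.29). The fit with the group alone called Erbb3 without GFP library 3 (edgeR adjusted p = 0.0381). All 8 differences within a number were positive, from 0.27 to 1.97 in log2(CPM + 1) for mScarlet minus DN and from 0.79 to 2.90 for DP minus GFP, a pattern shared by 5.54% of all genes. The largest of them, 2.90 and 2.49, belonged to numbers 4 and 1, whose GFP libraries held the highest marker levels of other cells. Without those GFP libraries the log2 fold change of Erbb3 was 0.80 (edgeR adjusted p = 0.0653), and with the block 0.96 (edgeR adjusted p = 0.00263). In DP vs GFP, Erbb3 had a log2 fold change of 1.34 (SE 0.55, edgeR adjusted p = 0.249), and with the block 1.62 (SE 0.41, edgeR adjusted p = 0.0425), the 1 member called there beside 5.09% of all genes. The blocked call was kept without DN library 4, GFP library 2 or 3, or mScarlet library 1, 3 or 4, and missed without any 1 of the other 10 libraries (0.0507 to 0.145). Without GFP libraries 1 and 4 these were 0.59 (edgeR adjusted p = 0.735) and 0.84 (edgeR adjusted p = 0.174).

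Erbb2, the partner receptor, had the smallest fold change of the 3 receptors. Its level was 288, 342, 459 and 255 CPM in DN, 243, 382, 566 and 272 in GFP, 506, 647, 493 and 324 in mScarlet, and 415, 542, 538 and 360 in DP. The groups overlapped, with GFP library 3 above all libraries but mScarlet library 2. Along the mScarlet gate (478 ± 106 against 351 ± 113 CPM, SD, n = 8) the log2 fold change of Erbb2 was 0.45 (SE 0.19, edgeR adjusted p = 0.16), and with the block 0.47 (SE 0.11, edgeR adjusted p = 0.0135). With the block, 14.4% of all genes were called in this comparison and 6.66% of all genes were called higher. Of the 9 tested members 3 were called, the 3 receptors, all higher. The fit with the group alone called Erbb2 without GFP library 3 (edgeR adjusted p = 0.046). The blocked call of Erbb2 ended without GFP libraries 1 and 4 (log2 fold change 0.38, edgeR adjusted p = 0.0506), and without the block and those libraries the log2 fold change was 0.26 (edgeR adjusted p = 0.501). Differences of Erbb2 within a number were positive in 7 of 8 cases, the exception being DP minus GFP for number 3, at -0.07. The count was also 7 of 8 for Egfr, Hbegf and Errfi1, so it was not particular to the receptors. It was 6 for Tgfa and 4 for Areg, Ereg and Btc. The share of all genes with 7 of 8 was not counted.

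**Figure D2:**
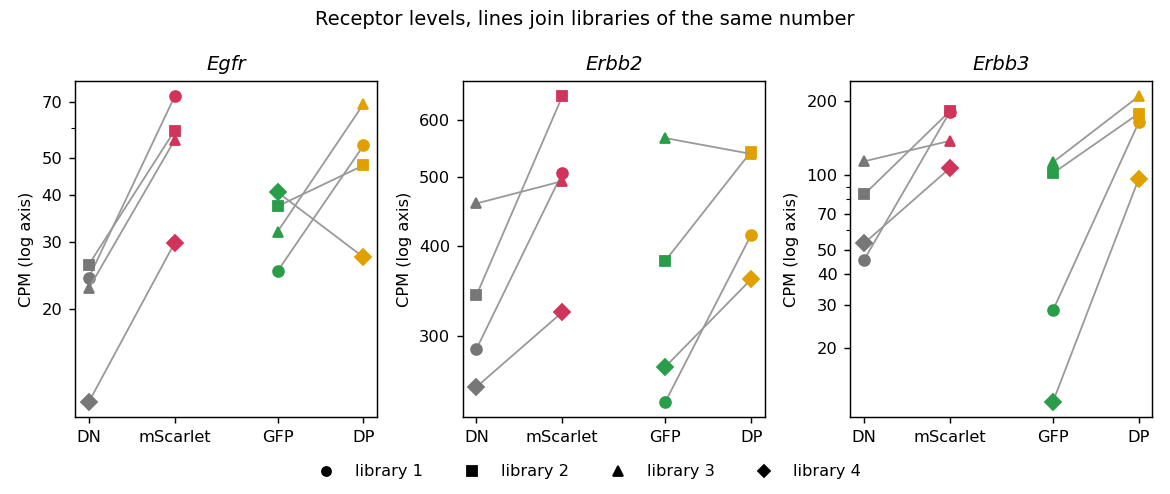
CPM of Egfr, Erbb2 and Erbb3 (log axes), with lines joining DN to mScarlet and GFP to DP of the same library number. All lines rise for Erbb3, and 1 of 8 falls for Egfr (GFP to DP, number 4) and for Erbb2 (GFP to DP, number 3).

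Markers of other cells are given here in 6 lists beside the receptors, and edgeR called genes along the mScarlet gate in the fibroblast and endothelial lists. Of all genes, 8.73% were called along this gate by edgeR and 24% had an unadjusted p under 0.05. Against DN alone, 8 of 13 acinar markers were positive in mScarlet and 1 of 13 in DP. For macrophage markers these counts were 1 of 15 and 14 of 15, and for fibroblast markers 0 of 14 and 0 of 14. The 14 fibroblast markers summed to 144 to 1570 CPM in DN and 668 to 10362 in GFP, against 19.6 to 94.8 in mScarlet and 33.7 to 295 in DP. All 14 had a negative fold change in mScarlet-positive libraries and 7 were called lower, with a median log2 fold change of -3.79 beside -0.02 over all genes. The acinar markers summed to 103 to 921 CPM in DN and 382 to 28838 in GFP, against 49 to 193 in DP and 72.9 to 1443 in mScarlet. Of the 13 tested, all 13 were negative, and edgeR called 0, with 12 at an unadjusted p under 0.05 and 10 called by DESeq2. The 15 macrophage markers summed to 1191 to 5227 CPM in DN and 3003 to 37604 in GFP, against 3282 to 11498 in DP and 1375 to 3731 in mScarlet. Of these 14 were negative, and edgeR called 0, with 1 at an unadjusted p under 0.05 and 1 called by DESeq2. No fibroblast or macrophage marker was at 0 throughout a group, and the acinar factor Ptf1a was at 0 in DN and DP. The 10 endothelial markers summed to 13.7 to 94.1 CPM in GFP and 24.2 to 31.8 in DN, against 11.4 to 15.6 in the mScarlet-positive groups, and all 10 were negative (median -1.52), with Eng called lower. Of 12 lymphocyte markers 9 were negative (median -1.06), and edgeR called 0, with 1 at an unadjusted p under 0.05 and 1 called by DESeq2. The lymphocyte sums ran from 4.19 to 52.6 CPM in DN and GFP and from 4.44 to 29.6 in mScarlet and DP, and Gzmb was at 0 in mScarlet. All 4 tested erythroid markers were negative (median -1.64), and edgeR called 0, with 0 at an unadjusted p under 0.05 and 0 called by DESeq2. Their sums ran from 0.411 to 4696 CPM in DN and GFP and from 0.0564 to 634 in mScarlet and DP. Of 10 cancer epithelium markers 7 were positive and 3 negative, and Cdh1 and Muc1 were called higher. The part of these cells in the receptor results was not tested.

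Among the ligands, no member was called along the mScarlet gate, with or without the block. With the group alone, fold changes of the 5 tested ligands ran from -0.20 to 0.26 on the log2 scale (edgeR adjusted p = 0.537 to 0.93). Of the 5, 0 had an unadjusted p under 0.05 or were called by DESeq2. With the block 1 of the 5, Hbegf, had an unadjusted p under 0.05. Hbegf, the most abundant of them, was at 266, 528, 505 and 507 CPM in DN, 225, 665, 539 and 770 in GFP, 441, 619, 515 and 702 in mScarlet, and 439, 688, 499 and 871 in DP. Library 1 was the lowest of its group in all 4 groups. The log2 fold change of Hbegf along the mScarlet gate was 0.26 (SE 0.23, edgeR adjusted p = 0.537), with an approximate 95% interval of -0.19 to 0.70. With the block it was 0.31 (SE 0.12, approximate 95% interval 0.07 to 0.55). The block gave Hbegf an edgeR unadjusted p of 0.0251 and an adjusted p of 0.113.

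Areg, a low-affinity EGFR ligand, was at 39.6, 18.4, 20.6 and 26.4 CPM in DN, 24, 22.6, 16.4 and 13.2 in GFP, 32.8, 18.2, 27 and 23.1 in mScarlet, and 28.5, 22.4, 22 and 22 in DP. Here library 1 was the highest of its group in all 4 groups, the opposite of Hbegf. The groups overlapped, and the log2 fold change of Areg along the mScarlet gate was 0.13 (approximate 95% interval -0.23 to 0.49, edgeR adjusted p = 0.728).

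Tgfa had its lowest mean in the GFP group. It was at 47.9, 42.1, 32.8 and 45.3 CPM in DN, 24, 23.4, 33.3 and 32.6 in GFP, 34.7, 42.5, 36.1 and 36.6 in mScarlet, and 39.2, 30.8, 38.2 and 37 in DP. All 4 GFP libraries lay below all 4 mScarlet libraries, as was so in either direction for 8.95% of all genes, while DN library 3 fell inside the GFP range. In GFP vs DN the log2 fold change of Tgfa was -0.57 (SE 0.16, unadjusted p = 0.00321, edgeR adjusted p = 0.37), and in GFP vs mScarlet it was -0.40 (SE 0.16, edgeR adjusted p = 0.187). The 2 comparisons share the GFP libraries, and neither passed the threshold. Without GFP libraries 1 and 4, which had the highest marker sums of other cells, the range of GFP was still 23.4 to 33.3 CPM.

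Betacellulin (Btc) was highest in DN library 4. It was at 32.5, 27.5, 23.6 and 55 CPM in DN, 25.5, 27.5, 12.6 and 16.6 in GFP, 18.6, 20.9, 32.4 and 26.6 in mScarlet, and 26, 18.5, 22.4 and 20.9 in DP. DN overlapped each other group. The log2 fold change in GFP vs DN was -0.75 (SE 0.29, edgeR adjusted p = 0.466). Ereg ran from 0 to 2.31 CPM, with 0 in DP library 3 and its highest value in DN library 2, and its fold change along the mScarlet gate had an SE of 0.90, too wide to give a direction. Epgn had no count in 14 of 16 libraries and was not tested.

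**Figure D3:**
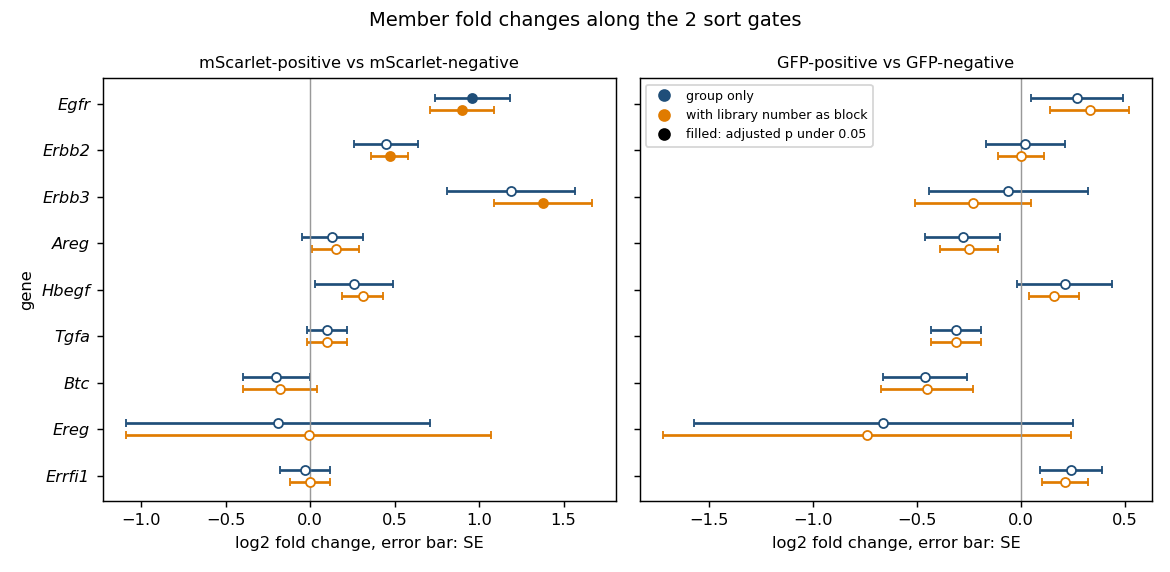
Log2 fold changes (points) with their SE (bars) of the 9 tested members along the mScarlet gate and the GFP gate, by the model with the group alone and with the block. Filled points, with an edgeR adjusted p under 0.05, are Egfr by both models and Erbb2 and Erbb3 with the block, all along the mScarlet gate.

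The feedback inhibitor Errfi1 was at a similar level in most libraries. It was at 180, 226, 219 and 237 CPM in DN, 183, 275, 241 and 472 in GFP, 212, 258, 251 and 251 in mScarlet, and 207, 285, 247 and 253 in DP. GFP library 4 stood apart at 472 CPM, and library 1 was the lowest of its group in all 4 groups, as for Hbegf. Along the mScarlet gate the log2 fold change of Errfi1 was -0.03 (SE 0.15, approximate 95% interval -0.33 to 0.27, edgeR adjusted p = 0.931). It was 0.13 without GFP library 4.

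Along the GFP gate (GFP and DP against DN and mScarlet) no member was called, as for 0 of all 15963 genes by edgeR, while 9.72% of genes had an unadjusted p under 0.05. Of the 9 tested members, 2 had an unadjusted p under 0.05, Tgfa (edgeR adjusted p = 0.392, log2 fold change -0.31, SE 0.12) and Btc (edgeR adjusted p = 0.486, log2 fold change -0.46, SE 0.20), and DESeq2 called 0 members. With the block, 0.501% of all genes and 0 members were called. Egfr had a log2 fold change of 0.27 along this gate (SE 0.22, edgeR adjusted p = 0.774).

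In GFP vs DN no member was called, as for 0 of all genes, with 3 of 9 members (Egfr, Tgfa and Btc) and 9.72% of genes at an unadjusted p under 0.05, and DESeq2 called 0 members. With the block 0 members and 0.0689% of all genes were called. Egfr had 33.8 ± 6.73 CPM in GFP and 21.1 ± 6.64 in DN (SD, n = 4), a log2 fold change of 0.68 (SE 0.31, edgeR adjusted p = 0.504). In GFP vs mScarlet, where 1.53% of all genes were called, 0 members were called by edgeR or DESeq2, and 3 (Egfr, Erbb3 and Tgfa), beside 19.2% of genes, had an unadjusted p under 0.05. With the block 7.45% of all genes and 1 member, Erbb3 (log2 fold change -1.61, edgeR adjusted p = 0.0368), were called there, though the numbers did not all pair these groups. DP vs GFP called 0.564% of all genes and 0 members by edgeR, 0 members by DESeq2, with 2 members (Erbb3 and Tgfa) and 15.9% of genes at an unadjusted p under 0.05. In DP vs mScarlet, edgeR called 0 members and 0 of all genes, DESeq2 called 0 members, and 0 members had an unadjusted p under 0.05, beside 2.88% of genes. The interaction term (DP minus mScarlet, less GFP minus DN) called 0 members and 0 genes by edgeR and 0 members by DESeq2. Its lowest unadjusted p among members was that of Tgfa (log2 difference 0.52, SE 0.23, unadjusted p = 0.0387, edgeR adjusted p = 1), with 3.29% of all genes at an unadjusted p under 0.05, and for Egfr it was -0.81 (SE 0.44, edgeR adjusted p = 1).

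The genes around the receptors were read from 5 lists of 65 genes, of which 62 were tested. Along the mScarlet gate 3 of the 62 were called higher and 3 lower, beside the 8.73% of all genes. Crk, Adam9, Myc, Fosl1, Epha2, Dusp6, Erbb4, Nrg1 and Nrg4 were chosen to be named after their values were seen. Among 12 receptor adaptors, 0 were called by edgeR (2 at an unadjusted p under 0.05, beside 24% of all genes, and 1 called by DESeq2), with a median log2 fold change of -0.05 beside -0.02 over all genes. With the block 1 of the 12 was called, beside 14.4% of all genes. This was Crk, an adaptor of phosphotyrosine signalling, at 0.40 (edgeR adjusted p = 0.028).

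Among 9 genes of ligand shedding and trafficking, 1 was called higher and 1 lower (median 0.00). Timp3, an inhibitor of the sheddases ADAM10 and ADAM17, fell from 6.65 ± 7.25 CPM in mScarlet-negative to 1.35 ± 1.33 in mScarlet-positive libraries (SD, n = 8), a log2 fold change of -2.85 (SE 0.70, edgeR adjusted p = 0.0201). Without GFP libraries 1 and 4 its log2 fold change was -2.41 (edgeR adjusted p = 0.0678). Adding the block to that fit gave -3.12 (edgeR adjusted p = 0.00464). The group means of Timp3 were 3.47 (DN), 9.83 (GFP), 0.267 (mScarlet) and 2.44 CPM (DP). The fibroblast marker sum was also highest in a GFP library (10362 CPM) and lowest in a mScarlet library (19.6 CPM). The part of fibroblasts in the Timp3 result was not tested. Rhbdl2, a rhomboid protease, rose from 10.2 ± 1.91 to 15.9 ± 4.53 CPM, by 0.65 on the log2 scale (SE 0.19, edgeR adjusted p = 0.0456), a call kept in 3 of 16 fits that left out 1 library (0.0299 to 0.112) and lost without GFP libraries 1 and 4 (0.0795), where the log2 fold change was 0.68. It was lost without DN library 1, 2, 3 or 4, GFP library 1, 2 or 3, mScarlet library 1, 3 or 4, or DP library 1, 2 or 4. With the block Adam9, a metalloprotease, was called higher as well (0.87, edgeR adjusted p = 0.042).

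Of 20 genes of receptor turnover and inhibition, 19 were tested, and 1 was called higher and 1 lower (median -0.12). Cblc, a ubiquitin ligase of the CBL family made in epithelium, rose from 118 ± 42.5 to 207 ± 25.6 CPM (SD, n = 8), a log2 fold change of 0.80 (SE 0.21, edgeR adjusted p = 0.0281). Its call was kept in 9 of 16 fits without 1 library and missed without DN library 1 (0.0591) or 4 (0.0593), GFP library 4 (0.0542), mScarlet library 2 (0.0639) or 3 (0.0502), or DP library 2 (0.0597) or 3 (0.0563), and with the block it was 0.88 (SE 0.15, edgeR adjusted p = 0.00212). Without GFP libraries 1 and 4 the log2 fold change of Cblc was 0.57 (edgeR adjusted p = 0.0333). Lrig1, a transmembrane protein that promotes degradation of ERBB receptors, fell from 39.4 ± 6.78 to 27.7 ± 3.71 CPM, a change of -0.51 on the log2 scale (SE 0.13, edgeR adjusted p = 0.0244), and without GFP libraries 1 and 4 the change was -0.50 (edgeR adjusted p = 0.0727).

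Of 18 genes of ERK output and feedback, 1 was called higher and 1 lower (median -0.07). Etv4, an ETS factor induced by ERK signalling, was at 77.2, 46, 44.3 and 70.5 CPM in DN, 66.2, 31.4, 31.7 and 57.9 in GFP, 20.3, 19.1, 27.2 and 34.9 in mScarlet, and 16.7, 22.2, 16 and 17.9 in DP. The mScarlet-positive libraries lay below the mScarlet-negative ones except that mScarlet library 4 exceeded GFP libraries 2 and 3. The log2 fold change of Etv4 was -1.30 (SE 0.20, edgeR adjusted p = 0.00124), against the 0.96 of Egfr in the same comparison. Etv4 was called lower in all 40 alternatives, at -1.41 to -1.02, and these include the fit without GFP libraries 1 and 4. Phlda1, also an ERK-induced gene, rose from 322 ± 55.7 to 483 ± 103 CPM, by 0.58 on the log2 scale (SE 0.14, edgeR adjusted p = 0.0194), and its call was lost without GFP libraries 1 and 4 (log2 fold change 0.45, edgeR adjusted p = 0.0935). With the block and without those libraries Phlda1 was called (0.53, edgeR adjusted p = 0.00313). Dusp6, the ERK phosphatase used as a readout of pathway output, was at 259 ± 24.5 CPM in mScarlet-positive and 275 ± 37.2 in mScarlet-negative libraries (SD, n = 8) and was not called. With the block, where 14.4% of all genes were called and 6.66% called higher, 1 of the 18 was called higher and 4 lower, the latter being Etv4, Myc (-0.39, edgeR adjusted p = 0.0107), Fosl1 (-0.55, edgeR adjusted p = 0.0162) and Epha2 (-0.41, edgeR adjusted p = 0.0237).

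The list of the other ERBB receptor and its ligands held 6 genes, of which 4 were tested and 0 called by edgeR or DESeq2, with 2 at an unadjusted p under 0.05 and a median log2 fold change of -0.51. Erbb4 had 80 counts in the 8 mScarlet-positive and 5 in the 8 mScarlet-negative libraries, below the filter. Its highest levels were in mScarlet library 3 (0.277 CPM), DP library 3 (0.254) and DP library 1 (0.238). In mScarlet library 4 and DP library 4 it was at 0. Of the neuregulins, which bind ERBB3 or ERBB4, Nrg4 was at 14.8 ± 3.21 CPM in mScarlet-positive and 9.43 ± 5.12 in mScarlet-negative libraries (SD, n = 8), and with the block it was called higher (log2 fold change 0.79, SE 0.22, edgeR adjusted p = 0.0271). Nrg1 was at 1.38 ± 0.511 and 2.86 ± 1.92 CPM.

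**Figure D4:**
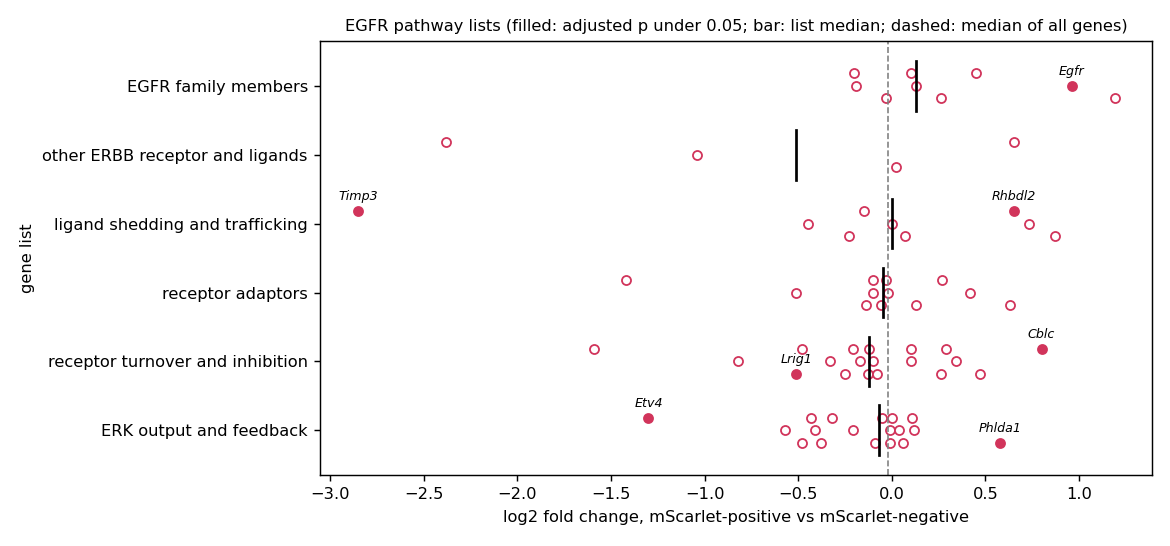
Log2 fold change along the mScarlet gate of each tested gene of the EGFR family members and of the 5 pathway lists (filled: edgeR adjusted p under 0.05; bar: list median; dashed line: median of all genes, -0.02). Egfr, Rhbdl2, Cblc and Phlda1 are filled to the right and Timp3, Lrig1 and Etv4 to the left.

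Across the 16 libraries, the genes whose log2(CPM + 1) most resembled that of Egfr, among 8101 ranked genes, were Adgrg6 (Pearson r = 0.96), Fer1l4 (0.91), Fam234a (0.90), Tmbim1 (0.88) and Pgap6 (0.86). Adgrg6 encodes an adhesion G protein-coupled receptor. Those closest to Erbb3 were Prom1, Cdh1 and Wwc1 (r = 0.98 each), Ugt2b35 (0.97) and Fam120b (0.96), and Cdh1 encodes E-cadherin, one of the epithelial markers. Those closest to Tgfa reached lower values, with Fam114a2 at 0.77, Gldc at 0.76, Cenpv and Acbd6 at 0.74 and Cptp at 0.72. Among the members, Egfr had r = 0.69 with Erbb2 and 0.51 with Erbb3, and Erbb3 had r = 0.83 with Erbb2, while Btc had r = -0.52 with Egfr. These values describe 16 libraries that share gates, library numbers and marker levels of other cells, and GFP libraries 1 and 4 were the lowest in Erbb3 and in Cdh1.

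**Figure D5:**
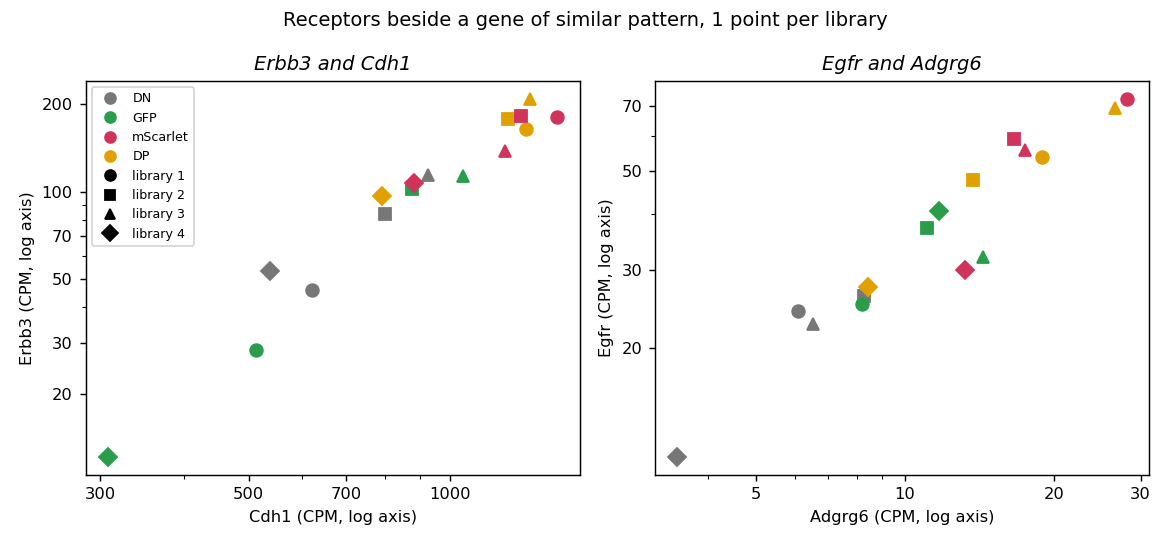
CPM of Erbb3 against Cdh1 and of Egfr against Adgrg6 in the 16 libraries (log axes, 1 point per library, colour: group, shape: library number). GFP library 4 is lowest for both Erbb3 (12.1 CPM) and Cdh1 (308 CPM), and DN library 4 is lowest for both Egfr (11.4 CPM) and Adgrg6 (3.46 CPM).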

How the data were processed

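For each library the authors deposited raw gene counts in whole numbers, keyed by Entrez gene identifier and without normalization, per the file headers. The submitters' processing notes name GRCm38 (mm10), STAR and DESeq2 1.24.0 without their roles. The sources used here name no read counter, annotation or strand setting. Of 24467 genes, 24437 matched a symbol in RefSeq GRCm38.p6, and the other 30 held 0.723% to 1.93% of counts. No 2 replicates agreed within sampling noise (lowest chi-square per degree of freedom 91.79).

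The main test was edgeR 4.0.16 (R 4.3.3), quasi-likelihood with robust dispersion, fitted to all 16 libraries by group after the expression filter (15963 genes) and TMM scaling, with Benjamini-Hochberg adjustment. The robust setting followed earlier results of these data. CPM are TMM-scaled, and levels per kb use union exon lengths of GENCODE M21. Floors of 3 counts cover counting error only, since the reads carry no molecular identifiers. The titles' numbers were checked as pairs by correlating deviations from group means across genes. The lowest r was 0.28 for the mScarlet gate, 0.39 for the GFP gate, 0.30 for GFP vs DN, 0.14 for mScarlet vs DN, 0.21 for DP vs DN, 0.29 for DP vs mScarlet and 0.13 for DP vs GFP, so the fit with the number as a block is given where it changed a call. For GFP vs mScarlet it was 0.09. Between unlike numbers the highest r was 0.16 for mScarlet vs DN, 0.17 for DP vs GFP and 0.18 for GFP vs mScarlet. In these comparisons it exceeded the lowest r of like numbers, and in the others it did not.

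Alternatives were DESeq2 1.42.0, RLE factors, no filter, the block, left-out libraries, only the 8 libraries compared and default dispersion. Default dispersion, and the block joined with left-out libraries, were chosen after seeing the data. On simulated counts with the layout of the mScarlet-gate comparison (15963 genes, 50 changed per size), 68% of genes with a log2 change of 1 and 58% with -1 were called, 94% with 2 and 96% with -2. The changed genes all had a mean over 10 CPM, and no effect of library number was simulated. The rates therefore do not cover lower genes such as Ereg. The members and lists were chosen with earlier results of these data known. All 10 members are named. From each pathway list at most 4 genes were to be named, those called in the mScarlet-gate comparison with the smallest p. Another 9 were named after their values were seen. Similar genes are the 5 with the highest Pearson r of log2(CPM + 1), among those with a mean of at least 10 CPM, for the 3 members with the smallest p. The sequences are RefSeq GRCm38.p6 promoter windows. Erbb3 and Ereg had none there, and windows of members on chromosome 18, where Hbegf lies, were left out.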

Additional observations from a re-analysis of the deposited data

Results flagged for a closer look

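In 3 of the 36 sets of 4 libraries (9 members in 4 groups), 1 library lay far from the other 3 of its group by Dixon's ratio. Chance flags about 1 in 20 such sets. Areg was at 28.5 CPM in DP library 1, above the other DP libraries at 22 to 22.4. Hbegf was at 266 CPM in DN library 1, below the others at 505 to 528. Errfi1 was at 212 CPM in mScarlet library 1, below the others at 251 to 258. All 3 libraries carry the number 1, and in the 4 groups library 1 was the highest for Areg and the lowest for Hbegf and for Errfi1.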

How the results depend on the processing

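Counts of called members out of 9 moved with the setting. In mScarlet vs DN the count of 1 (Egfr) became 0 with RLE size factors, default dispersion or the 8 libraries alone, 0 to 1 without 1 library, and 3 with the block and without GFP libraries 1 and 4. In DP vs DN the count of 0 became 1 with DESeq2, with the replicate block and with block and default dispersion, 2 without those GFP libraries, 4 with block and without them, and 0 to 1 without 1 library. Along the mScarlet gate the count of 1 became 2 with DESeq2, 3 with the replicate block (default dispersion too), 0 without GFP libraries 1 and 4, 2 with block and without them, and 1 to 3 without 1 library, 3 in the fit without GFP library 3. In DP vs GFP, where r of like numbers did not always exceed that of unlike numbers, the block gave 1 (Erbb3), also with default dispersion. In GFP vs mScarlet, whose numbers did not all pair, the block gave 1 (Erbb3, log2 fold change -1.61, edgeR adjusted p = 0.0368), also with default dispersion, and 1 (Egfr) without GFP libraries 1 and 4. With the block and 1 library left out, counts ran from 0 to 2 in mScarlet vs DN, DP vs DN and GFP vs mScarlet, from 0 to 1 in DP vs GFP, and stayed at 3 along the mScarlet gate. The block changed no other count of members. The cause of these changes was not tested.

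Some fold changes turned sign. Along the mScarlet gate, Ereg ran from -0.59 to 0.08 without 1 library. It turned to 0.05, 0.08 and 0.00 without DN library 2, GFP library 3 or DP library 3, and with the block to 0.22, 0.14, 0.79, 0.03, 0.22, 0.13 and 0.24 without DN library 1 or 2, GFP 3, mScarlet 1 or 2, or DP 1 or 3. Errfi1 ran from -0.13 to 0.13, and turned to 0.13, 0.01 and 0.05 without GFP library 4, DP library 1 or GFP libraries 1 and 4, and with the block to 0.13, 0.09, 0.03 and 0.03 without GFP 4, GFP 1 and 4, mScarlet 4 or DP 4. Erbb2 in DP vs GFP turned from 0.34 to -0.02 without GFP libraries 1 and 4, and Egfr in DP vs mScarlet, from -0.34 to 0.06 without 1 library, to 0.03 (also with the block) and 0.06 without mScarlet library 1 or DP library 4. Over 40 alternatives along the mScarlet gate, Egfr was called in 39, Erbb3 in 21 and Erbb2 in 19, with no change of sign. The counts of Erbb3 and Erbb2 depend on how many of these fits used the block. Among fits without 1 library, each of these 2 genes was called in 16 of 16 with the block and in 1 of 16 without it. All genes called there numbered 1393, against 2525 with DESeq2 and 2297 with the block. In mScarlet vs DN they numbered 188, 903 and 865, in DP vs DN 371, 1146 and 1017, in GFP vs mScarlet 245, 1665 and 1190, and in DP vs GFP 90, 1099 and 813. Epgn did not pass the expression filter and was not tested.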
